A study of Homo sapiens with 11 samples.

Results

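The genes described here were 10 genes of the adherens junction, out of 33616 genes that the array annotation names by a single symbol. They were 4 cadherins (CDH1, CDH2, CDH3 and CDH11), 4 catenins (CTNNB1, CTNNA1, CTNND1 and JUP), and the adhesion molecules EPCAM and NECTIN1. They were picked by name as genes of this junction, with earlier results of these data known. Each gene was read from the probe set that carries its symbol alone, and where there were several, as for CDH3 with 2, from the one with the highest mean. Of the 10 genes, 9 were among the 16808 genes with the highest mean level, which were kept for testing, and CTNNA1 was not.

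PC3 cells, an established human cell line from a bone metastasis of prostate cancer, had been measured on 11 Clariom D arrays, 1 per condition. Transfected siRNA at 24 h and 48 h accounted for 8 arrays, which were siNC (a negative control siRNA), siHOXB13, siHOXA11 and siHOXA11-AS at each time, with 2 siRNA sequences combined per target. HOXB13 and HOXA11 encode homeobox transcription factors, and HOXA11-AS is the long noncoding RNA from the strand opposite HOXA11. The other 3 arrays, all at 48 h, were titled shNC, shIBSP(1) and shIBSP(2) after IBSP, a sialoprotein of bone matrix, while other fields of their labels speak of siRNA, which was not settled here. The labels give the siRNA at 20 uM, and the methods give it in a nanomolar unit. With 1 array per condition, a difference between 2 arrays has no replicate check. The methods speak of repeated experiments in general and do not tie repeats to the arrays, so p-values measure only the spread between these arrays, which may be technical.

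HOXB13 itself went against the titles of 2 arrays. At 24 h it had a log2 intensity of 10.10 on the siNC array and of 8.09 on the siHOXB13 array. At 48 h it was 8.52 on the array titled siNC and 10.36 on the array titled siHOXB13. These 2 arrays are therefore called by their titles throughout, and the genes were related to the HOXB13 signal array by array. On the 7 other arrays HOXB13 lay between 9.75 and 11.20. The siHOXA11 array of 48 h stood apart from the rest, with a median log2 distance (root mean square over the genes kept) of 0.816 to the other arrays, against 0.571 to 0.710 for the other 10. Epithelial keratins were well above background on all 11 arrays, with KRT8 between 15.85 and 17.01 and KRT18 between 12.91 and 15.22, and KRT5, a basal keratin, lay between 2.94 and 3.89. For the 23 background probe sets the median on an array was 3.26 to 3.32.

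Adherens junctions hold neighbouring epithelial cells together. A classical cadherin binds the same cadherin on the next cell, and inside the cell its tail binds p120-catenin (CTNND1) near the membrane and beta-catenin (CTNNB1) or plakoglobin (JUP) farther along, which link through alpha-catenin (CTNNA1) to actin. Beta-catenin that is not held at the junction and escapes degradation enters the nucleus and acts with TCF/LEF factors in Wnt signalling. Loss of E-cadherin (CDH1) and gain of N-cadherin (CDH2) are widely used as marks of epithelial to mesenchymal transition, and PC3 cells are known to lack alpha-catenin through a deletion in CTNNA1.

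The siHOXB13 reagent is shown because the HOXB13 signal orders the arrays. The study's reagent table lists 2 target sequences of 23 bases for HOXB13, a gene on chromosome 17. They are written 5′ to 3′ as listed, with the 13 bases that both hold in capitals:
siHOXB13 (1): ttcatgaattGAGCTAATTATGA
siHOXB13 (2): GAGCTAATTATGAataaatttgg
The 2 sequences overlap, so the pair covers 1 stretch of the transcript and not 2 separate sites.

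The upstream sequence of CTNNB1 is shown because it was the gene of the 10 for which the 2 arrays with the least HOXB13 signal were also its 2 lowest. The 250 bases before its start, from RefSeq on build GRCh38.p14 at chr3:41199255-41199504 on the plus strand, follow with the TATAA stretch in capitals:
CTNNB1: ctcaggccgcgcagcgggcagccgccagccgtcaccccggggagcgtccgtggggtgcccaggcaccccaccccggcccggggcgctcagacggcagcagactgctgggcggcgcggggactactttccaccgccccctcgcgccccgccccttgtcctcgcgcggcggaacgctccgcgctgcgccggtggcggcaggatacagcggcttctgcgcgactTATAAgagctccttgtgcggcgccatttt
This stretch starts 29 bases before the start site, and 13.6% of all RefSeq promoters of the same length hold these letters. GC content was 74.4%, against a median of 58.0% over all promoters. Promoter entries were matched for CTNNB1 (1), CTNNA1 (4), JUP (2) and CDH2 (2), 9 in all. On either strand of the window from 250 bases before to 50 bases after the start, none of the 9 held TCGTAAA or CAATAAA, core letters of binding motifs known for HOXB13, which occur in 0.541% and 4.0% of the 35116 promoters. The E-box CAGGTG, which SNAI and ZEB repressors recognize, was in 1 of the 9, a JUP promoter, and in 20.6% of all.

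**Figure D1:**
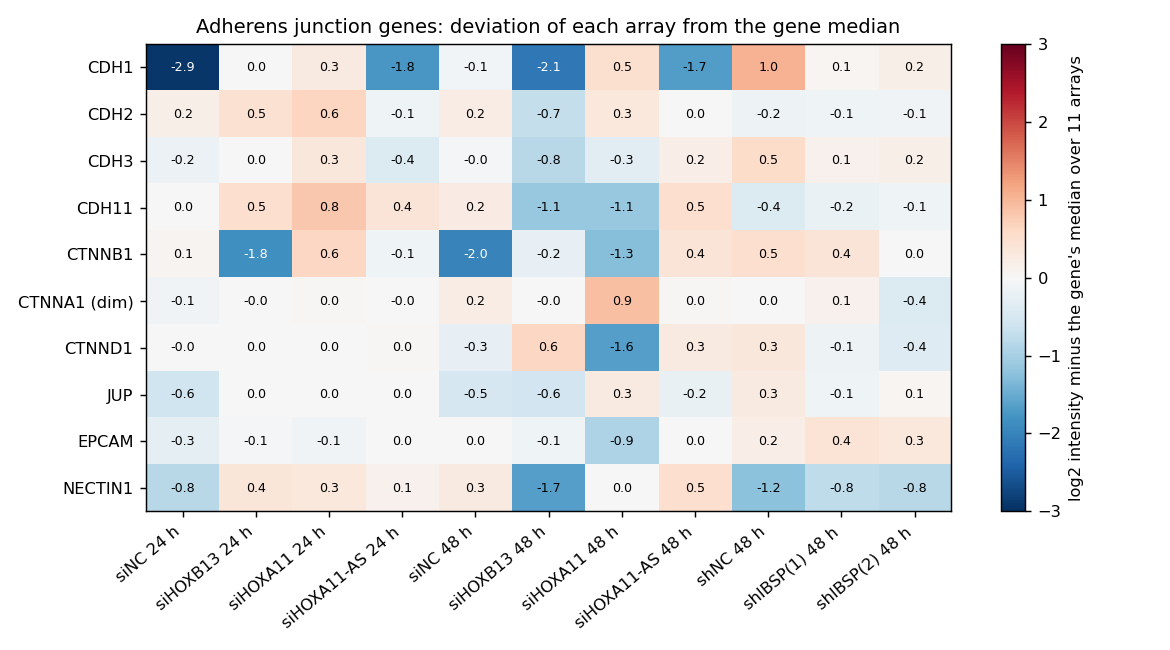
Deviation of each of 11 arrays (columns) from the gene's own median over the arrays (rows, log2 intensity), with red above and blue below the median. CDH1 was below its median by over 1.5 on 4 arrays and CTNNB1 on the 2 arrays with the least HOXB13, while CTNNA1 was near background.

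CDH1, which encodes E-cadherin, had the widest range of the 10 genes, 3.96 on the log2 scale. At 24 h its log2 intensity was 10.56 with siNC, 13.49 with siHOXB13, 13.76 with siHOXA11 and 11.73 with siHOXA11-AS. The 48 h values were 13.40 on the array titled siNC, 11.35 on the array titled siHOXB13, 13.98 for siHOXA11 and 11.81 for siHOXA11-AS. The arrays titled sh read 14.52 with shNC, 13.54 with shIBSP(1) and 13.66 with shIBSP(2). The values fell into a lower set of 4 arrays (10.56 to 11.81) and an upper set of 7 (13.40 to 14.52), with an empty gap of 1.58 between them. The lower set held siNC at 24 h, the array titled siHOXB13 at 48 h and both siHOXA11-AS arrays. The upper set held both arrays with the least HOXB13, both siHOXA11 arrays and the 3 arrays titled sh.

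**Figure D2:**
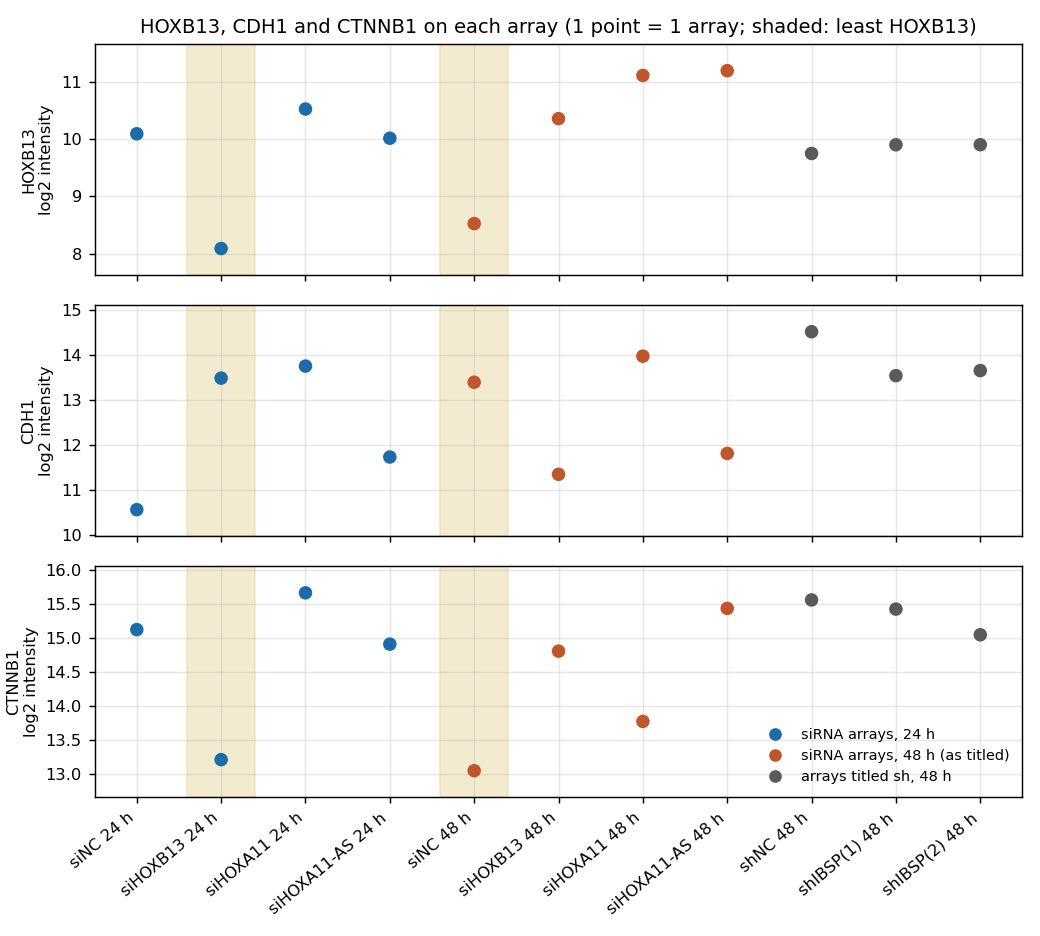
Log2 intensity (y axes) of HOXB13, CDH1 and CTNNB1 on each of the 11 arrays (x axis, by title), 1 point per array, with the 2 arrays of least HOXB13 shaded. On both shaded arrays CDH1 was in its upper set (13.49 and 13.40) and CTNNB1 was lowest (13.21 and 13.04).

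The array titled siNC at 48 h did not look like siNC at 24 h in CDH1. It was 2.84 higher on the log2 scale, a 7.14-fold difference, where 4.75% of the 16808 genes were at least 2-fold higher and 1.51% at least 2-fold lower. At 24 h, CDH1 was 2.93 higher with siHOXB13 than with siNC, a 7.60-fold difference. At 48 h, it was 2.05 higher on the array with less HOXB13, titled siNC, than on the array titled siHOXB13, a 4.14-fold difference. Taken by title, the 48 h difference of siHOXB13 from siNC is thus −2.05, opposite in sign to 24 h. Since the pair at 48 h was ordered by its measured HOXB13, these 2 differences are a description of 4 arrays, with no test.

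On the arrays that were not low in HOXB13, CDH1 took both high and low values. HOXB13 separated the arrays into the 2 low ones and the 9 others, so no single coefficient over all 11 is read as a relation. Within the 9 others Pearson's r was −0.10 (exact permutation p = 0.781, two-sided) and Spearman's rho was −0.17 (exact permutation p = 0.678). Over all 11 the coefficients were r = −0.23 (permutation p = 0.494) and rho = −0.12 (permutation p = 0.733). Among the 8 siRNA arrays r was −0.23 (exact permutation p = 0.548) and rho was 0.17 (exact permutation p = 0.703), and without their 2 arrays of least HOXB13, r over the other 6 was 0.54 (exact permutation p = 0.249) and rho was 0.66 (exact permutation p = 0.175). The 3 arrays titled sh were too few for a value of their own. No unadjusted p of r or rho was under 0.05 in these 4 settings, nor in the 15 others computed (another scaling, another choice of probe set, or other arrays left out), so none could pass an adjustment. The 4 arrays of the lower CDH1 set had HOXB13 between 10.02 and 11.20, and the 5 arrays of the upper set that were not low in HOXB13 had it between 9.75 and 11.12, so the 2 ranges overlapped almost entirely.

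**Figure D3:**
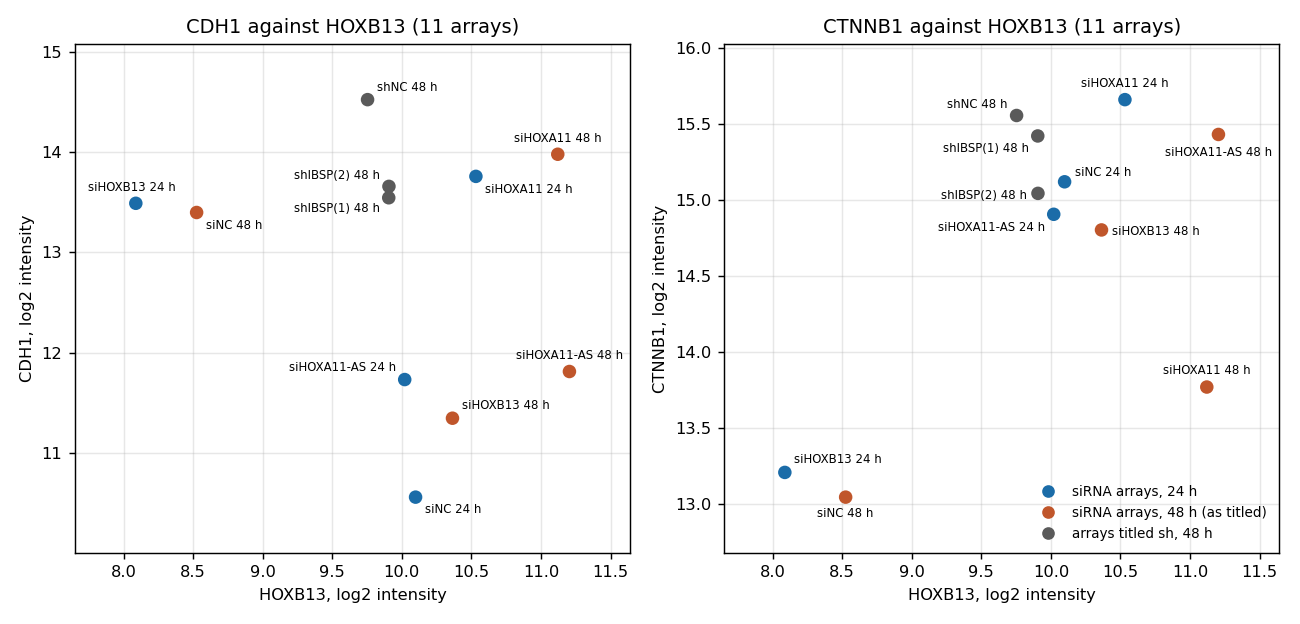
Log2 intensity of CDH1 (left) and CTNNB1 (right) against log2 intensity of HOXB13 on 11 arrays, 1 point per array, coloured by time and array set. CDH1 took high and low values at the same HOXB13 level, while CTNNB1 was lowest on the 2 arrays at 8.09 and 8.52 on the HOXB13 axis, with the siHOXA11 array of 48 h (13.77) next.

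A comparison whose differences leave out the arrays in doubt set siHOXA11 against siHOXA11-AS at each time. Its 48 h difference uses the siHOXA11 array that stood apart. CDH1 was 2.02 higher with siHOXA11 at 24 h and 2.16 higher at 48 h, which are 4.07-fold and 4.48-fold. At least a 2-fold higher level at both times was seen for 0.446% of the genes kept, and CDH1 was the only one of the 9 kept members among them. The limma fit of the 8 siRNA arrays gave a difference of 2.09 (standard error 0.90, 95% interval 0.04 to 4.14, adjusted p = 0.60 after Benjamini-Hochberg adjustment over the 16808 genes), so it was not called. CDH1 was the 1 of 9 members with an unadjusted p under 0.05 in this contrast, where 8.26% of the genes were. The error of this fit draws on all 8 siRNA arrays, the 2 in doubt included. With no filter on dim genes the interval was −0.03 to 4.22. In that setting, and with a gene's probe sets averaged, no member had an unadjusted p under 0.05. Without the 2 arrays in doubt the difference was the same, since neither array enters it. That fit had 1 residual degree of freedom, so its error is not read. Against siNC, the fit gave CDH1 0.44 with siHOXB13 (95% interval −1.61 to 2.49), 1.89 with siHOXA11 (−0.16 to 3.94) and −0.21 with siHOXA11-AS (−2.26 to 1.84), with adjusted p between 0.98 and 1.00. These 3 contrasts share the siNC arrays, one of which is in doubt. The siHOXB13 contrast also holds the array titled siHOXB13 at 48 h. By title HOXB13 itself differed by −2.01 at 24 h and 1.84 at 48 h, so this contrast averages opposite differences. It therefore cannot show whether CDH1 changed with HOXB13, and that disagreement also enters the error of the other siRNA contrasts.

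With the arrays titled sh, CDH1 was lower than on shNC, with differences of −0.98 on shIBSP(1) and −0.86 on shIBSP(2), both against the same shNC array. The limma estimate was −0.92 (standard error 1.02, 95% interval −3.20 to 1.36, adjusted p = 1.00). The error of this fit draws mostly on the siRNA arrays, those in doubt included. Its interval is therefore not the spread of the arrays titled sh, where the differences of −0.98 and −0.86 lay close together. None of the 9 members differed 2-fold on either shIBSP array, where 0.506% and 0.988% of the genes kept were at least 2-fold higher and 1.6% and 4.87% at least 2-fold lower.

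The genes whose pattern over the 11 arrays was most like that of CDH1, by Pearson's r among the 16808 genes kept, were INSR (r = 0.93, the insulin receptor), WFS1 (0.93, an endoplasmic reticulum membrane protein), ISCA1P1 (0.92, a pseudogene), MRPS10 (0.90, a mitochondrial ribosomal protein) and MT2A (0.89, a metallothionein). The most opposite were AMACR (−0.93), an enzyme of branched-chain fatty acid metabolism that marks prostate carcinoma, KRT18P42 (−0.87), AGAP1-IT1 (−0.84), RNU6-1153P (−0.82) and IFT88 (−0.82). AMACR was highest at 8.94 with siNC at 24 h, where CDH1 was lowest, and lowest at 8.03 with shNC, where CDH1 was highest. These coefficients were picked as the extremes of many and are a description. Within the 10 genes, JUP (r = 0.74) and CDH3 (r = 0.61) had the highest coefficients with CDH1, over arrays that share control conditions.

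N-cadherin (CDH2) varied far less, between 10.12 and 11.47, with the lowest value on the array titled siHOXB13 at 48 h and the highest with siHOXA11 at 24 h. It was 0.30 and 0.93 higher on the array with less HOXB13 of each pair. P-cadherin (CDH3), whose gene is the neighbour of CDH1 on chromosome 16, lay between 11.11 and 12.48, again lowest on the array titled siHOXB13 at 48 h. Its pair differences were 0.18 at 24 h, which became −0.03 with arrays centred on the median or quantile normalized, and 0.80 at 48 h. The second CDH3 probe set lay between 8.76 and 9.78.

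CDH11, which encodes OB-cadherin, a cadherin of osteoblasts and mesenchymal cells, was low on 2 arrays of 48 h. At 24 h its log2 intensity was 10.04 with siNC, 10.55 with siHOXB13, 10.84 with siHOXA11 and 10.43 with siHOXA11-AS. At 48 h it was 10.28 on the array titled siNC, 8.90 on the array titled siHOXB13, 8.90 with siHOXA11 and 10.54 with siHOXA11-AS. The arrays titled sh read 9.62, 9.83 and 9.92 for shNC, shIBSP(1) and shIBSP(2). The 2 low arrays were the one titled siHOXB13 and the siHOXA11 array that stood apart. Neither was low in HOXB13.

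CTNNB1, which encodes beta-catenin, went the other way from CDH1 on the arrays with the least HOXB13. At 24 h its log2 intensity was 15.12 with siNC, 13.21 with siHOXB13, 15.66 with siHOXA11 and 14.91 with siHOXA11-AS. The 48 h values were 13.04 on the array titled siNC, 14.80 on the array titled siHOXB13, 13.77 with siHOXA11 and 15.43 with siHOXA11-AS. The arrays titled sh read 15.56 with shNC, 15.42 with shIBSP(1) and 15.04 with shIBSP(2). The 2 arrays with the least HOXB13 were the 2 lowest of 11, the siHOXA11 array of 48 h was next, and the other 8 lay at or above 14.80. Against its partner, the array with less HOXB13 was lower, with differences of −1.91 at 24 h and −1.76 at 48 h, which are 3.77-fold and 3.39-fold. HOXB13 itself differed by −2.01 and −1.84.

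For 1.7% of the genes kept, the 2 arrays with the least HOXB13 were also the 2 lowest of 11, and CTNNB1 was the 1 of 9 members among them. For 2.77% they were the 2 highest, with no member among them. A limma fit over all 11 arrays, with HOXB13 as a numeric term beside time and array set, gave CTNNB1 a slope of 0.76 log2 units per log2 unit of HOXB13 (standard error 0.16, 95% interval 0.41 to 1.12, adjusted p = 0.34). It was not called, and neither was any other gene. CTNNB1 was 1 of 9 members with an unadjusted p under 0.05 in this fit, where 4.8% of all genes were. Without the siHOXA11 array of 48 h the slope was 0.93 (standard error 0.095, adjusted p = 0.00921) and passed the threshold. In that fit 9 of 16807 genes were called. Without the 48 h arrays titled siNC and siHOXB13 the slope was 0.97 (standard error 0.24) and was not called. Leaving out the 2 low arrays turned the coefficient of CTNNB1 with HOXB13 from 0.61 over 11 arrays to −0.40 over 9, so the slope rests on those 2 arrays.

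The other members had slopes between −0.33 and 0.08, with no p under 0.332. CDH1 had a slope of −0.33 (standard error 0.34, 95% interval −1.07 to 0.40, adjusted p = 1.00), and without siHOXB13 at 24 h it was −0.08, the nearest to 0 of the values with 1 array left out, which reached −0.59 without siHOXA11 at 24 h. Of the 9 slopes 7 were negative, beside 57.7% of the 16807 genes.

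CTNNA1, which encodes alpha-catenin, was at background. Its log2 intensity lay between 2.72 and 4.03 on the 11 arrays, beside the median of 3.26 to 3.32 for the background probe sets, and its highest value was on the siHOXA11 array of 48 h. No fold is given for it. CTNND1, which encodes p120-catenin and keeps cadherins at the membrane, was flat at 24 h and varied at 48 h. At 24 h its log2 intensity was 14.71 with siNC, 14.73 with siHOXB13, 14.72 with siHOXA11 and 14.75 with siHOXA11-AS. The 48 h values were 14.47 on the array titled siNC, 15.34 on the array titled siHOXB13, 13.07 with siHOXA11 and 14.99 with siHOXA11-AS. The sh-titled arrays gave 15.05, 14.57 and 14.32 for shNC, shIBSP(1) and shIBSP(2). Only the siHOXA11 array of 48 h lay below the others by more than their own spread there, with a gap of 1.25 to the next array.

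JUP, which encodes plakoglobin, the catenin that adherens junctions and desmosomes share, lay between 10.63 and 11.50 and was lowest with siNC at 24 h. It was higher than siNC at 24 h by 0.60 with siHOXB13, 0.62 with siHOXA11 and 0.60 with siHOXA11-AS, against the same siNC array. With arrays centred on the median these JUP differences were smaller, 0.38, 0.42 and 0.45. EPCAM, an epithelial adhesion molecule, lay between 15.35 and 16.68. Its lowest value was on the siHOXA11 array of 48 h, and the other 10 arrays lay at or above 16.00.

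NECTIN1, an immunoglobulin-like adhesion molecule that binds afadin, was, besides CDH1, the member at least 2-fold higher on the array with less HOXB13 at both times. At 24 h its log2 intensity was 8.55 with siNC, 9.75 with siHOXB13, 9.69 with siHOXA11 and 9.50 with siHOXA11-AS. Later, at 48 h, it was 9.65 on the array titled siNC, 7.73 on the array titled siHOXB13, 9.38 with siHOXA11 and 9.89 with siHOXA11-AS. The arrays titled sh gave 8.15, 8.61 and 8.55 for shNC, shIBSP(1) and shIBSP(2). The pair differences were 1.20 and 1.92, and with arrays centred on the median the first was under 2-fold. All 3 siRNA arrays of 24 h were above siNC, and the highest of the 11 arrays was siHOXA11-AS at 48 h, where HOXB13 was also highest. The slope on HOXB13 was −0.09 (standard error 0.21, adjusted p = 1.00), and it changed sign when either array with little HOXB13 was left out.

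**Figure D4:**
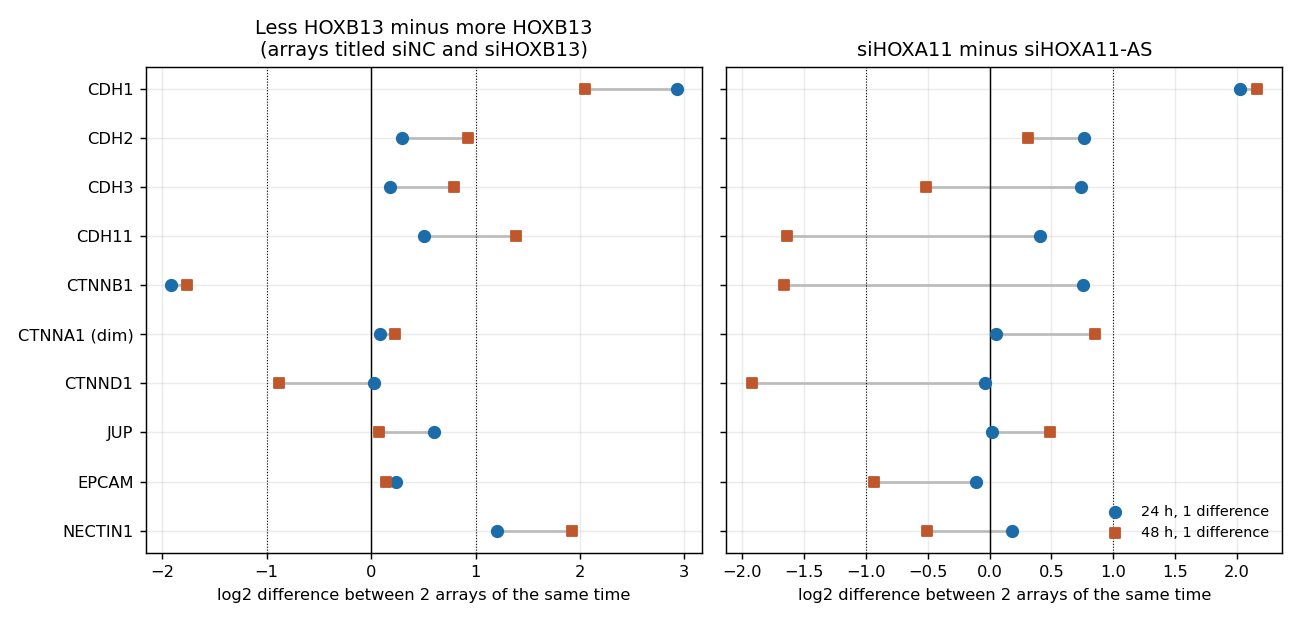
Log2 difference between 2 arrays of the same time (x axis) for each gene (y axis), with circles for 24 h and squares for 48 h, 1 difference each. Dotted lines mark 2-fold. CDH1 and NECTIN1 lay beyond 2-fold higher at both times on the array with less HOXB13 (left) and CTNNB1 beyond 2-fold lower, and CDH1 alone lay beyond 2-fold at both times for siHOXA11 minus siHOXA11-AS (right).

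Across the 9 members kept, the pairs ordered by HOXB13, which share no array, mostly had the same sign at both times. CDH1 and NECTIN1 were at least 2-fold higher at both times, 2 of 9, where 1.31% of all genes kept were. CTNNB1 was at least 2-fold lower at both times, 1 of 9, where 0.387% were. After centring CDH1 alone was at least 2-fold higher at both times. The sign was the same at both times for 8 of 9 members, all but CTNND1, beside 63.5% of the genes kept. After centring or quantile normalization it was also 8 of 9, with CDH3 as the exception. The median over all genes kept was 0.18 at 24 h and 0.03 at 48 h. No member was at least 2-fold lower at both times with siHOXA11 than with siHOXA11-AS, where 0.875% of the genes kept were, and 5 of 9 members had the same sign at both times in that comparison, beside 53.9%. There CTNNB1 differed by 0.76 at 24 h and −1.66 at 48 h, CDH11 by 0.41 and −1.64, and CTNND1 by −0.03 and −1.92. At 24 h, 2.49% of all genes kept were at least 2-fold higher and 1.73% at least 2-fold lower in this comparison. At 48 h the shares were 4.6% and 17.5%, with the siHOXA11 array that stood apart.

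Taken against siNC as titled, 4.58% of the genes kept were at least 2-fold higher and 1.09% at least 2-fold lower on siHOXB13 at 24 h, and CDH1, NECTIN1 and CTNNB1 were the members among them. With siHOXA11 at 24 h, CDH1 was 3.19 higher and NECTIN1 1.14 higher, where 3.69% of genes were at least 2-fold higher, and no member was 2-fold lower, where 0.976% were. With siHOXA11-AS at 24 h, CDH1 was 1.17 higher, where 3.86% were, and no member was 2-fold lower, where 1.8% were. These differences share the siNC array of 24 h, on which CDH1 and JUP were at their lowest of all 11 arrays. At 48 h with siHOXA11, CTNND1 and CDH11 differed by −1.39 each, where 13.2% of the genes kept were at least 2-fold lower and 3.9% higher. With siHOXA11-AS at 48 h, CTNNB1 differed by 2.39, where 3.68% were at least 2-fold higher, and CDH1 by −1.58, where 2.05% were at least 2-fold lower. On the array titled siHOXB13 at 48 h, CTNNB1 was 1.76 above the array titled siNC, where 5.22% were at least 2-fold higher, and CDH1, CDH11 and NECTIN1 were at least 2-fold lower, where 4.62% were.

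Neither the siRNA contrasts, the shIBSP contrast nor the slope on HOXB13 called a member, or any other gene (0.0% in each), at an adjusted p of 0.05 by limma. At an unadjusted p under 0.05, siHOXB13, siHOXA11 and siHOXA11-AS against siNC had 170, 618 and 672 of 16808 genes (1.01%, 3.68% and 4.0%), shIBSP against shNC had 427 (2.54%), and the slope had 806 of 16807. No member was among them in the contrasts with a control array. The fit of the siRNA arrays had 3 residual degrees of freedom, and CDH1 had a residual SD of 1.44 in it. Its differences at 24 h and 48 h, taken by title, had opposite signs for siHOXB13 and siHOXA11-AS.

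Other junction genes, from lists drawn up by name, also had no call. Of 28 adherens junction partners 19 were kept, and none was 2-fold different in both HOXB13-ordered pairs. IQGAP1, a scaffold at cadherin contacts, and ADAM10, the protease that sheds E-cadherin, were the 2 of 19 with an unadjusted p under 0.05 for the slope, negative for IQGAP1 and positive for ADAM10, where 4.8% of all genes were. AJUBA, a LIM protein that binds alpha-catenin, was 1.24 and 0.91 higher on the arrays with less HOXB13. Among 9 desmosomal genes kept, DSC2, a desmosomal cadherin, differed by −1.66 and −2.32 in the 2 pairs and by −1.22 and −3.11 with siHOXA11 against siHOXA11-AS. DSG2, another desmosomal cadherin, was the 1 of 9 with an unadjusted p under 0.05 for the slope, which was negative. DSC2 was opposite in sign to CDH1 in all 4 of these differences. PKP1, a desmosomal plaque protein, was 0.75 and 1.89 higher in the pairs. Of the 9 tight junction genes kept, none was 2-fold different in both pairs, and CLDN1 had the widest range, from 9.86 to 12.47.

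Of 8 known repressors of CDH1, 6 were kept, and SNAI1 and ZEB2 were too dim. The 2 with the widest range had the same sign as CDH1 in the pairs, and none of the 6 was called. SNAI2, which encodes the repressor Slug, had a log2 intensity of 10.81 with siNC, 12.57 with siHOXB13, 12.54 with siHOXA11 and 12.35 with siHOXA11-AS at 24 h. Later, at 48 h, it was 11.42 on the array titled siNC, 8.30 on the array titled siHOXB13, 10.87 with siHOXA11 and 11.01 with siHOXA11-AS. In the pairs SNAI2 was 1.76 and 3.12 higher where HOXB13 was lower, the same sign as CDH1. TCF4, another repressor, was 0.93 and 0.52 higher. The repressor ZEB1 was the 1 of 6 with an unadjusted p under 0.05 for the slope on HOXB13, where 4.8% of all genes were. Of 8 activators kept, ELF3 and GRHL2, both epithelial transcription factors, were 1.11 and 0.66 higher and 0.70 and 0.16 higher in the pairs.

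Of 13 listed targets of beta-catenin 6 were kept, and none was called. The slope on HOXB13 was positive for 5 of the 6, while 57.7% of the 16807 genes had a negative slope. The medians of the 6 over the pairs were −0.13 and −0.01, beside 0.18 and 0.03 for all genes kept. AXIN2, NKD1, SP5, LGR5, NOTUM and TNFRSF19 were too dim. MYC was 0.92 and 1.70 higher on the arrays with less HOXB13, and DKK1, a secreted Wnt inhibitor, differed by −0.36 and −1.47. Of the 6 genes of the complex that degrades beta-catenin, all were kept, and AXIN1 differed by −0.48 at 24 h and 0.32 at 48 h, while CSNK1A1 was 0.87 and 0.59 higher.

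Markers of other cell types were examined beside the junction genes. The epithelial keratin KRT7 was 1.07 and 1.55 higher in the pairs ordered by HOXB13, and KRT18 0.32 and 0.68 higher. Log2 levels were summed over all markers with a probe set, dim ones included. The sum of 5 epithelial markers lay between 62.17 and 69.04 over the arrays, and that of 5 fibroblast markers between 26.04 and 29.71. That of 4 leukocyte markers lay between 20.76 and 23.02, and that of 4 endothelial markers between 18.29 and 20.59. PTPRC, which defines leukocytes, lay between 6.22 and 7.09, and the fibroblast markers PDGFRB and DCN and the endothelial markers KDR and TEK were too dim to be kept. In the pairs all 4 epithelial markers kept were higher on the array with less HOXB13 at both times. So were 0 of 3 prostate luminal markers, 1 of 3 fibroblast markers (LUM, 0.48 and 0.35) and 0 of 3 leukocyte markers. Among endothelial markers it was 1 of 2 (PECAM1, 1.02 and 0.68). COL1A2 differed by 0.29 and −0.64 and VWF by 0.19 and −0.53. The median over the fibroblast markers was 0.31 at 24 h and −0.43 at 48 h, and that over all genes kept was 0.18 and 0.03. The share of all genes higher in both pairs is not given here, so these marker counts have no comparison. The prostate luminal markers KLK3 and KLK2 lay between 5.57 and 6.57 and between 4.74 and 5.67. TMPRSS2, the third luminal marker kept, was higher, between 7.44 with siNC at 24 h and 9.90 with siHOXA11-AS at 48 h. The part of other cells or of a smaller amount of RNA per cell in these values was not tested.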

How the data were processed

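RNA of PC3 cells on 11 Clariom D arrays was summarized by the authors with Affymetrix Expression Console, per the submitters' processing notes, and deposited as 1 linear intensity per probe set and array. How the arrays were normalized and summarized, the software version and the build were not given in the sources. Log2 values had been assumed in the design, so log2 was taken first, without further normalization. Of 138745 probe sets, 36176 carried 1 symbol, 1119 several and 101450 none here. Genes named are the 10 members, HOXB13, the 5 genes most like and the 5 most unlike CDH1, and up to 2 genes per list with the widest range, and other named genes were chosen after their values were seen. Members and lists were chosen with earlier results of these data known.

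Differences between single arrays have no test. limma 3.58.1 in R 4.3.3 (lmFit, eBayes, Benjamini-Hochberg over all genes kept) was used with treatment and time on the 8 siRNA arrays (3 residual degrees of freedom), on all 11 arrays for shIBSP (4), and with HOXB13 signal, time and array set (7). The contrast of siHOXA11 with siHOXA11-AS was added after the data were seen. The fits were tested on simulated data. Python 3.11.15 with numpy 2.4.6 and pandas 2.3.3 gave permutation p-values, exact under 10 arrays and otherwise from 100000 draws. The p-values rest on how far the times disagree, and the number of arrays limits the precision. Alternatives tried were no filter on dim genes, an intensity trend, averaging a gene's probe sets, centring arrays on the median, quantile normalization, other sets of arrays or terms, the methods' t-test, another control array and leaving out each array.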

Additional observations from a re-analysis of the deposited data

Results flagged for a closer look

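Taken by title, 17 of 27 combinations of a member and an siRNA had opposite directions at 24 h and 48 h against siNC of the same time, 8 for siHOXB13, 5 for siHOXA11 and 4 for siHOXA11-AS. For siHOXB13, 63.5% of all genes kept also had opposite directions by title, so this was the usual state. For siHOXA11 and siHOXA11-AS the share over all genes is not given here. With 1 array per condition the difference between the times was not tested. All of them rest on the array titled siNC at 48 h, and those of siHOXB13 also on the array titled siHOXB13 at 48 h, whose HOXB13 goes against the titles.

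For siHOXB13, the log2 differences at 24 h and 48 h were 2.93 and −2.05 for CDH1, 0.30 and −0.93 for CDH2, 0.18 and −0.80 for CDH3, and 0.51 and −1.39 for CDH11. They were −1.91 and 1.76 for CTNNB1, 0.60 and −0.072 for JUP, 0.23 and −0.14 for EPCAM, and 1.20 and −1.92 for NECTIN1. CTNND1 was the 1 of 9 members kept with the same direction at both times. After centring the count was 16 of 27, and after quantile normalization 15.

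For siHOXA11, the log2 differences at 24 h and 48 h were 0.52 and −0.30 for CDH3, 0.80 and −1.39 for CDH11, 0.0117 and −1.39 for CTNND1, 0.17 and −0.94 for EPCAM, and 1.14 and −0.27 for NECTIN1. The siHOXA11 array of 48 h also stood apart from the other arrays.

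For siHOXA11-AS, they were 1.17 and −1.58 for CDH1, −0.22 and 0.21 for CDH3, −0.21 and 2.39 for CTNNB1, and 0.29 and −0.0024 for EPCAM.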

How the results depend on the processing

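The count of members called stayed at 0 under every alternative run for the siRNA, siHOXA11 against siHOXA11-AS and shIBSP comparisons. For the slope on HOXB13 it was 0 to 1 when each array was left out, with CTNNB1 called only without the siHOXA11 array of 48 h (slope 0.93). Leaving out each array in turn, the slope of CTNNB1 was 0.63 to 0.93, that of CDH1 −0.59 to −0.08 and that of NECTIN1 −0.22 to 0.11, with 0.02 without siHOXB13 at 24 h and 0.11 without the array titled siNC at 48 h. The CDH1 difference was 1.98 to 2.21 for siHOXA11 minus siHOXA11-AS and 0.16 to 3.61 for siHOXA11 minus siNC, and its r with HOXB13 was −0.40 to −0.13. Of 80 differences from a control array, 14 were at least 2-fold, and 16 after quantile normalization, 12 after centring and 13 with siNC of 24 h as the only siRNA control. With that control 10 differences changed sign. Of those at least 2-fold before, these were CDH1 on the array titled siHOXB13 at 48 h (0.79), CTNNB1 on it (−0.32) and CDH1 with siHOXA11-AS at 48 h (1.25). CTNNB1 with siHOXA11 at 48 h went from 0.72 to −1.35 and NECTIN1 from −0.27 to 0.83, and the other 5 were under 0.3 in size under both controls. After centring 8 differences changed sign and after quantile normalization 7, all under 0.3 in size. Over all genes, the slope fit called 0 genes, but 2 after quantile normalization, 3 after centring and 0 to 9 when each array was left out, with the 9 without the siHOXA11 array of 48 h and 3 without the array titled siHOXB13 at 48 h. The cause was not tested. The methods' t-test gave 328 genes higher and 117 lower at its unadjusted threshold for siHOXB13 against siNC, 367 and 219 for siHOXA11 and 636 and 337 for siHOXA11-AS, and none after Benjamini-Hochberg adjustment. No pairing by replicate number was possible because each condition has 1 array, so groups share fewer than 2 replicate numbers. Arrays of the same time were joined by the time term of the main fit, and without this term the count of members called was also 0.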
